A study of Mus musculus with 74 samples.

Results

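The weaker distal BMAL1 peaks in open chromatin are places where the clock factor BMAL1 was found by ChIP-seq with a low peak score, away from annotated gene starts, and where adipocyte chromatin was accessible. They were chosen by measured values, from the deposited list of 10368 BMAL1 peaks of mouse inguinal white adipose tissue as those outside the 500 of highest HOMER peak score, over 1000 bp from the nearest annotated start, and sharing at least 1 bp with an ATAC-seq region of brown adipose tissue (BAT) or white adipose tissue (WAT). This selected 2884 peaks, 27.8% of all BMAL1 peaks and 68.2% of the 4226 weaker distal ones. Score, distance and overlap chose these peaks, so those values are given as a description only.

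ATAC-seq and RNA-seq came from Adiponectin-Cre:NuTRAP mice, in which a Cre driven by the adipocyte gene Adipoq switches on tags of adipocyte nuclei and ribosomes. All groups carried both alleles, and both depots were sampled at 6 Zeitgeber times, ZT1, ZT5, ZT9, ZT13, ZT17 and ZT21. Each depot and time had 3 ATAC and 3 RNA libraries, except BAT RNA at ZT17 with 2. BMAL1 ChIP-seq used 2 libraries of whole inguinal WAT of C57BL6J mice at ZT4, with an anti-BMAL1 antibody, so BMAL1 binding in BAT and at other times was not measured. The labels give no light schedule, sex, age or diet, and do not say that replicates came from separate animals, so p-values reflect the spread of libraries and no more.

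BMAL1 pairs with CLOCK or its relative NPAS2 and binds the E-box, a short DNA element whose best-known form is CACGTG. The pair switches on the Per and Cry genes, whose products inhibit it, and the genes of the REV-ERB receptors, which repress the gene of BMAL1, so that binding and transcription return each day. In mouse liver BMAL1 binds mostly in the light phase, and much of its binding lies at enhancers far from starts. In adipocytes the clock sets daily rhythms of fat synthesis, lipolysis and hormone release.

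Adipocyte markers were present in every RNA library, with a summed level between 37749 and 58723 depth-scaled counts (CPM) in BAT, and between 6587 and 74109 CPM in WAT. For the 4 brown adipocyte markers the sum was 8513 to 13466 CPM in BAT libraries, against 114 to 1150 CPM in WAT libraries. For macrophage markers it was 7.55 to 17.2 CPM in BAT libraries, against 12.9 to 187 CPM in WAT libraries. For the fibroblast and progenitor markers it was 6.71 to 69.7 CPM in BAT libraries, against 78.3 to 1193 CPM in WAT libraries. None of the 5 macrophage or 5 fibroblast markers was at 0 in all libraries of a depot. Tags in regions totalled 3959384 to 12811242 per BAT ATAC library and 1623006 to 5294923 per WAT ATAC library. RNA totals were 4980147 to 46274438 per BAT library, against 1301522 to 6481154 per WAT library, and 3 WAT libraries gave 53.0% to 66.0% of their counts to ribosomal RNA loci.

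Sequence was at hand only for the 300 bases around annotated RefSeq starts of the GRCm38.p6 assembly, which also hold starts that the deposited annotation did not use, and 119 of the 2884 peaks touched such a window. The motif CACGTG was read on both strands. It lay in 20 of the 129 windows touched by a weaker distal peak (15.5%), in 148 of the 325 touched by the 500 strongest peaks (45.5%), in 14.7% of those touched by weaker peaks near starts and in 7.15% of all 32851 windows. CACGTT, a related form that differs from it in the last base, lay in 6.20% of the windows touched by weaker distal peaks and in 4.68% of all windows. Among the 16 peaks with CACGTG inside the bases they share with a window, 5 of 16 had rhythmic accessibility in BAT and 2 of 13 in WAT, by the test described below, which called 18.9% of all regions in BAT and 16.2% in WAT. Those 5 are shown here, chosen after their values were seen, because they join a BMAL1 peak, its motif and a daily rhythm. The capitals mark CACGTG, and each sequence is written 5′ to 3′ on the strand of the RefSeq gene whose window holds it. Labels give the nearest gene of the deposited annotation, which differs from the gene of the window. The windows are of LOC108167736 (Zfp648 peak), Gm34157 (Tle3 peak), Osbpl5 (Mrgprg peak), Gm34403 (Zfp217 peak) and Arhgef4 (AA619741 peak). In that order, the peaks lay at -83302, -1715, 9853, -42116 and -41824 bases from the start of the gene in the label.
Zfp648 peak, mm10 chr1:154117804-154117991, minus strand: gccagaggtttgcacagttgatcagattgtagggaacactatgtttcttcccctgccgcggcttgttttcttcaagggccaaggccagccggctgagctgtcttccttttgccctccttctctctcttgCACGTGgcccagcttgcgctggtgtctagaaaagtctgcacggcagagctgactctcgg
Tle3 peak, mm10 chr9:61370545-61370740, minus strand: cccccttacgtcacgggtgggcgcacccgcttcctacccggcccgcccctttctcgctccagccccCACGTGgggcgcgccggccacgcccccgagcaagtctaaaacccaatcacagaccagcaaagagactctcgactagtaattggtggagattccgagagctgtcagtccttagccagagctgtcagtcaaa
Mrgprg peak, mm10 chr7:143757034-143757246, minus strand: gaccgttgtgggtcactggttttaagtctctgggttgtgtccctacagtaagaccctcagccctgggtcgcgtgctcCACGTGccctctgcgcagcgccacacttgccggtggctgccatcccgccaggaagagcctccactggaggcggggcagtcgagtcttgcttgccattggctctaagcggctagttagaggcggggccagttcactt
Zfp217 peak, mm10 chr2:170184718-170184897, minus strand: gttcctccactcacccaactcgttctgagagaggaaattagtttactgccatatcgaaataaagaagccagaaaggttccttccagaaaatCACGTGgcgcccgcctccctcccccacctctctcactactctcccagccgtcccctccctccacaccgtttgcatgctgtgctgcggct
AA619741 peak, mm10 chr1:34677932-34678140, plus strand: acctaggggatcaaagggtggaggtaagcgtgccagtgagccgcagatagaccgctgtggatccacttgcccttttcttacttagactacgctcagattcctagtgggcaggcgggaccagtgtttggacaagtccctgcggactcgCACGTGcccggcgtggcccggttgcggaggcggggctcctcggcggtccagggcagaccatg

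In these 5 peaks the highest accessibility came at different times of day. The Zfp648 peak (chr1:154117779-154117991) swung by 1.10 ± 0.18 log2 units from trough to peak in BAT, highest at ZT8.66, and by 1.00 ± 0.17 in WAT, highest at ZT9.43 (SE; edgeR adjusted p = 0.00107 in BAT and 0.000888 in WAT). The peak near Tle3 (chr9:61370545-61370757), the gene of a corepressor, swung by 0.24 in BAT with its maximum at ZT3.01 and by 0.39 in WAT with its maximum at ZT0.13, and the AA619741 peak (chr1:34677928-34678140) by 0.82 with its maximum at ZT2.73. The peak near Zfp217 (chr2:170184685-170184897), the gene of a zinc-finger factor, was highest at ZT22.7 in BAT and the Mrgprg peak (chr7:143757034-143757246) at ZT13.5.

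A further pair of peaks named below by the rule for rhythmic regions beside rhythmic genes touch a window and hold only looser E-boxes of the form CANNTG, which 72.3% of all windows hold. They are printed because their region and nearest gene were both rhythmic, and the capitals mark each CANNTG. The windows are of Gm39098 (Tacc2 peak, at -46395 bases from the Tacc2 start) and Gm34474 (Ppp1r3b peak, at -157275 bases from the Ppp1r3b start).
Tacc2 peak, mm10 chr7:130646055-130646207, minus strand: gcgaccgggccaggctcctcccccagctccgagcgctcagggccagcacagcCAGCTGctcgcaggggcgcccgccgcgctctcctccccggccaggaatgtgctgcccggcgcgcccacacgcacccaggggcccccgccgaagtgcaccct
Ppp1r3b peak, mm10 chr8:35218390-35218572, plus strand: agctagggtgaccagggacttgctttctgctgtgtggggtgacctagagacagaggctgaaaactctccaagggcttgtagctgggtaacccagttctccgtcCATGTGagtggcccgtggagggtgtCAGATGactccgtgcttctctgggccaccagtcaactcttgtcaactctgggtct

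The 2884 peaks had scores of 3.25 to 14.6 with a median of 5.48, against a median of 18.7 for the 500 strongest peaks. The score at rank 500 was 14.6, shared by 16 peaks of which 6 ranked within the 500. Just inside the threshold lay the weaker distal peaks near Nr3c1, E030018B13Rik, 4930519F24Rik and Zbtb42, all at 14.6, and just outside lay distal peaks near Dgkh, Stk32c and A330076C08Rik, also at 14.6. Scaled ChIP tags had a median of 5.49 in ChIP library 1 and 5.47 in library 2. With 1 added to the tags of each library, which draws ratios of low values together, 94.6% of the peaks agreed within 2-fold between the libraries. Across peaks, log2 tags of the 2 libraries correlated with Pearson r = 0.475 for the weaker distal peaks and 0.874 for the strongest 500, as a description of peaks that share both libraries.

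The peaks lay a median of 23.3 kb from the nearest start and as far as 1183189 bp. Within 10000 bp lay 741 peaks (25.7%), 1313 lay between 10000 and 50000 bp (45.5%), and 335 lay beyond 100000 bp (11.6%). The authors' annotation placed 1456 between genes (50.5%) and 1264 in introns (43.8%). Repeats held 295 of them (10.2%), against 210 of the 1342 weaker distal peaks outside open chromatin (15.6%). Most peaks were open in both depots, since 2164 touched regions of both (75.0%), 521 of BAT only and 199 of WAT only. They were assigned to 2312 nearest genes, of which 1888 had a single peak and 16 had at least 5, among them Nr3c1 (the glucocorticoid receptor), Nfia (a transcription factor of brown adipocytes), Zfp423 (a factor of committed fat precursors) and Tead1 (a partner of the YAP coactivator).

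Accessibility of these peaks followed the time of day about as often as that of other open regions far from starts. In BAT 545 of 2685 peaks (20.3%) were rhythmic, where 18.9% of all 42572 regions and 21.2% of distal regions without a BMAL1 peak were. In WAT 543 of 2363 peaks (23.0%) were rhythmic, against 16.2% of all 25050 regions and 23.7% of distal regions without a BMAL1 peak. A rhythm was a 24 h cosine and sine fitted to tag counts by edgeR's quasi-likelihood test and called at an adjusted p under 0.05 over all regions of the depot. Rhythmic peaks swung by a median of 0.52 log2 units from trough to peak in BAT and 0.64 in WAT, a little less than the 0.67 in BAT and 0.73 in WAT of rhythmic distal regions without BMAL1. No test was made of the peaks as a set against other regions.

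Other BMAL1 peaks stood elsewhere on the same scale. Of the strongest 500 peaks with a region, 132 of 425 were rhythmic in BAT (31.1%) and 60 of 408 in WAT (14.7%), and of the weaker peaks within 1000 bp of a start 15.1% in BAT and 4.86% in WAT. The rhythmic ones near starts had small swings, with a median of 0.29 log2 units in BAT and 0.39 in WAT. The weaker distal peaks were also more open than other distal regions, with a median of 26.9 CPM in BAT and 36.8 CPM in WAT, against 14.8 CPM in BAT and 26.5 CPM in WAT for distal regions without a BMAL1 peak. When regions were split into 5 equal classes of accessibility, the rhythmic share of the weaker distal peaks was between 16.5% and 22.6% in every BAT class and between 19.4% and 26.3% in every WAT class. For the other distal regions it was between 19.4% and 23.2% in BAT and between 19.8% and 24.7% in WAT.

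The time of highest accessibility of the rhythmic peaks was spread over the day in BAT and lay mostly from ZT9 on in WAT. Of the 545 rhythmic peaks in BAT, 17.4% were highest nearest to ZT1, 15.2% to ZT5, 17.8% to ZT9, 9.17% to ZT13, 12.7% to ZT17 and 27.7% to ZT21. Rhythmic distal regions without BMAL1 had 8.04% at ZT1 and 5.49% at ZT5 in BAT, but 23.5% at ZT13 and 22.3% at ZT17. In WAT the rhythmic weaker distal peaks had 4.42% at ZT1, 5.71% at ZT5, 28.2% at ZT9, 20.4% at ZT13, 17.9% at ZT17 and 23.4% at ZT21, beside 3.67%, 2.60%, 21.9%, 19.4%, 17.4% and 35.0% at the same times for distal regions without BMAL1. Of the rhythmic strongest 500 peaks, 58.3% in BAT and 33.3% in WAT were highest nearest to ZT5. For rhythmic weaker peaks within 1000 bp of a start this share was 67.7% in BAT and 34.7% in WAT. Rhythmic regions near starts without a BMAL1 peak had 40.2% in BAT and 23.7% in WAT. The annotation placed 64.8% of the strongest 500 peaks at promoters. Without the ZT21 libraries, which correlated least with the others, 411 peaks were rhythmic in BAT (15.3%, against 13.7% of all regions). In WAT 349 peaks were rhythmic (14.8%, against 10.8% of all regions, which include those near starts). The share of these peaks highest near ZT21 was 22.6% in BAT and 14.9% in WAT. For other rhythmic distal regions it was 22.1% in BAT and 24.7% in WAT.

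**Figure D1:**
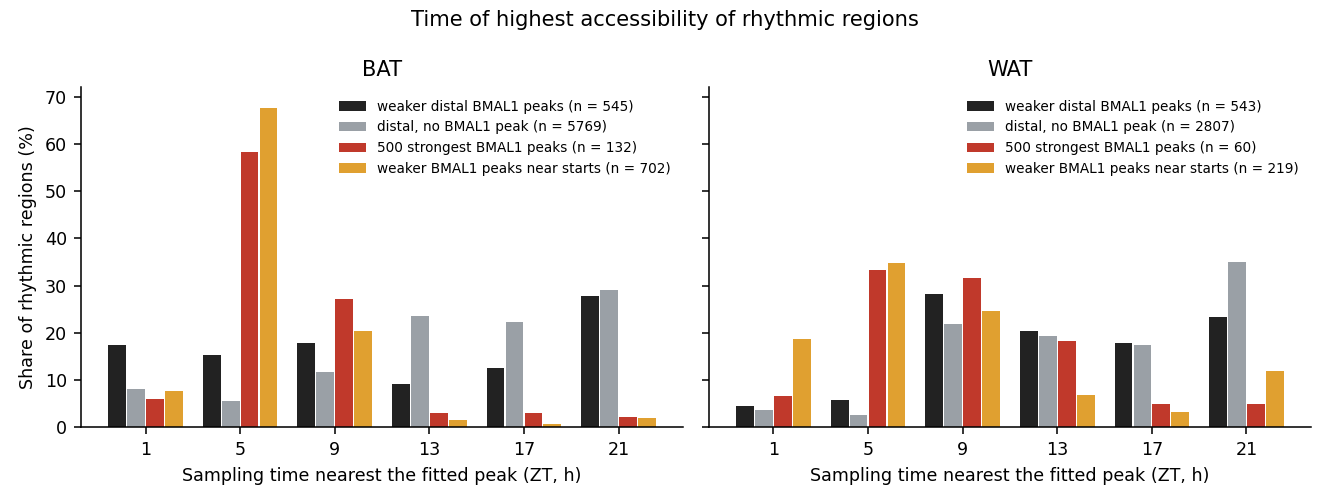
Share of rhythmic regions (percent, vertical axis) whose fitted maximum lay nearest to each sampling time (hours of Zeitgeber time, horizontal axis), in BAT (left) and WAT (right), with bars for the sets of regions named in the legend with their n. The weaker distal BMAL1 peaks have 15.2% at ZT5 in BAT where the strongest 500 have 58.3% and the weaker peaks near starts 67.7%.

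Rhythmic peaks of high score or near a start were more often highest at ZT5 or ZT9 in BAT. With the peaks split by score into 3 equal classes, 23.0% of the highest class, 18.8% of the middle class and 19.0% of the lowest class were rhythmic in BAT. The share of these rhythmic peaks that was highest near ZT5 or ZT9 was 41.0% in the highest class, 32.0% in the middle class and 24.1% in the lowest class. By distance, that share was 48.1% within 10000 bp and 26.8% beyond 100000 bp in BAT, and 41.1% within 10000 bp and 21.6% beyond 100000 bp in WAT. In WAT the share near ZT5 or ZT9 did not follow score in order, with 39.9% in the highest class, 26.8% in the middle class and 35.0% in the lowest class. These shares were not tested. Rhythmic regions without a BMAL1 peak also differed by distance in BAT. Those within 1000 bp of a start had 40.2% at ZT5 and 27.0% at ZT9, and those farther out 5.49% and 11.6%. Score and distance were not separate, since the median score in BAT was 5.99 within 10000 bp and 4.96 beyond 100000 bp.

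The weaker distal peaks together took nearly the same share of ATAC tags at every time. In BAT their regions held 7.94% to 8.33% of the tags of a library, and in WAT 9.20% to 9.89%. The mean share in BAT was 8.28% at ZT1 and 7.99% at ZT13, its lowest, and in WAT it was 9.34% at ZT1, its lowest, and 9.80% at ZT17. Regions within 1000 bp of starts held 39.0% to 43.1% in BAT and 52.4% to 55.9% in WAT, with means that were highest at ZT5 in BAT (42.8%) and at ZT1 in WAT (55.4%). This share moved with time beside the rhythms reported here, and its part in them was not tested.

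**Figure D2:**
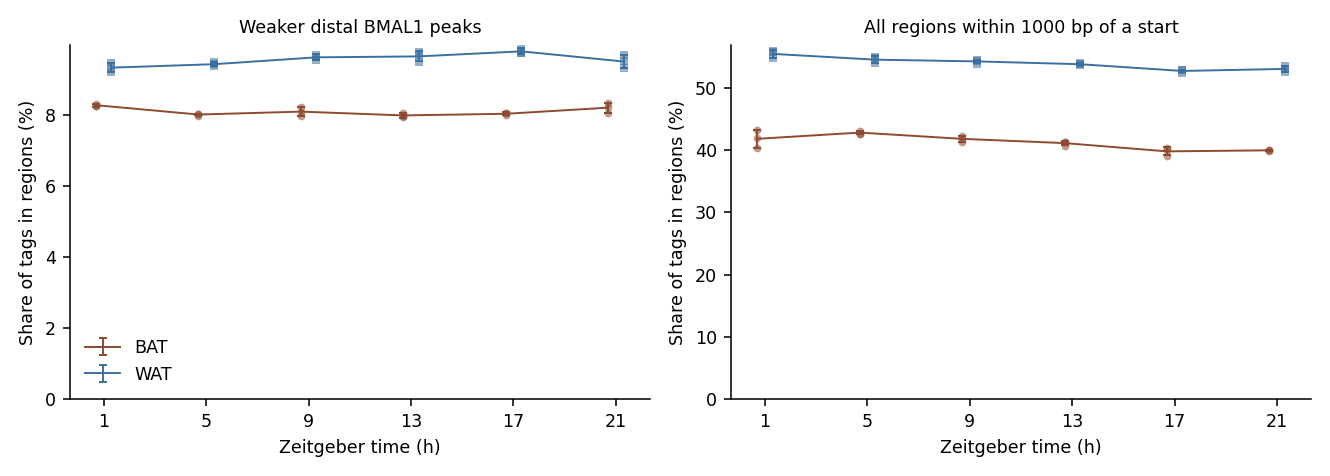
Share of the tags in regions (percent, vertical axis) against Zeitgeber time (hours, horizontal axis) for the regions of the weaker distal BMAL1 peaks and for all regions near starts, with points for libraries and lines with bars for mean ± SD (n = 3 per depot and time). The peaks take 7.94% to 8.33% of tags in BAT and 9.20% to 9.89% in WAT.

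Among the peaks with the lowest rhythm p in BAT, the strongest swing was at an intronic peak assigned to Sri (mm10 chr5:8157624-8157836), the gene of the calcium-binding protein sorcin. Its region had 16.0, 16.7 and 17.1 CPM at ZT5, 18.6, 19.8 and 17.6 CPM at ZT9, and 4.58, 2.92 and 4.04 CPM at ZT17 in BAT. The ZT5 and ZT9 libraries were all above every ZT17 and ZT21 library, and the swing was 2.25 ± 0.21 log2 units with a maximum at ZT6.53 (edgeR adjusted p = 3.47e-06). No WAT region overlapped it. CPM at single times were scaled within each depot's own table, so they compare times within a depot and not levels between BAT and WAT. The RNA of Sri was not rhythmic in BAT (0.40 ± 0.12, adjusted p = 0.0827).

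The peak of Npas2 (mm10 chr1:39192780-39192992), at -1386 bases from the start of the gene of CLOCK's relative, was most open around ZT21 to ZT1. In BAT it had 22.6, 24.2 and 20.7 CPM at ZT1 and 18.6, 20.4 and 22.8 CPM at ZT21, against 8.87, 8.20 and 10.9 CPM at ZT13. In WAT it had 28.0, 34.8 and 50.1 CPM at ZT21 and 15.4, 14.2 and 11.1 CPM at ZT13. The ZT21 and ZT13 libraries did not overlap in either depot. The swing was 1.35 ± 0.15 log2 units in BAT with a maximum at ZT0.11 (edgeR adjusted p = 2.78e-05) and 1.54 ± 0.21 in WAT with a maximum at ZT21.1 (adjusted p = 3.28e-05). The difference of the rhythms between depots did not pass (adjusted p = 0.0737), and the RNA of Npas2 was too low to be tested in BAT.

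**Figure D3:**
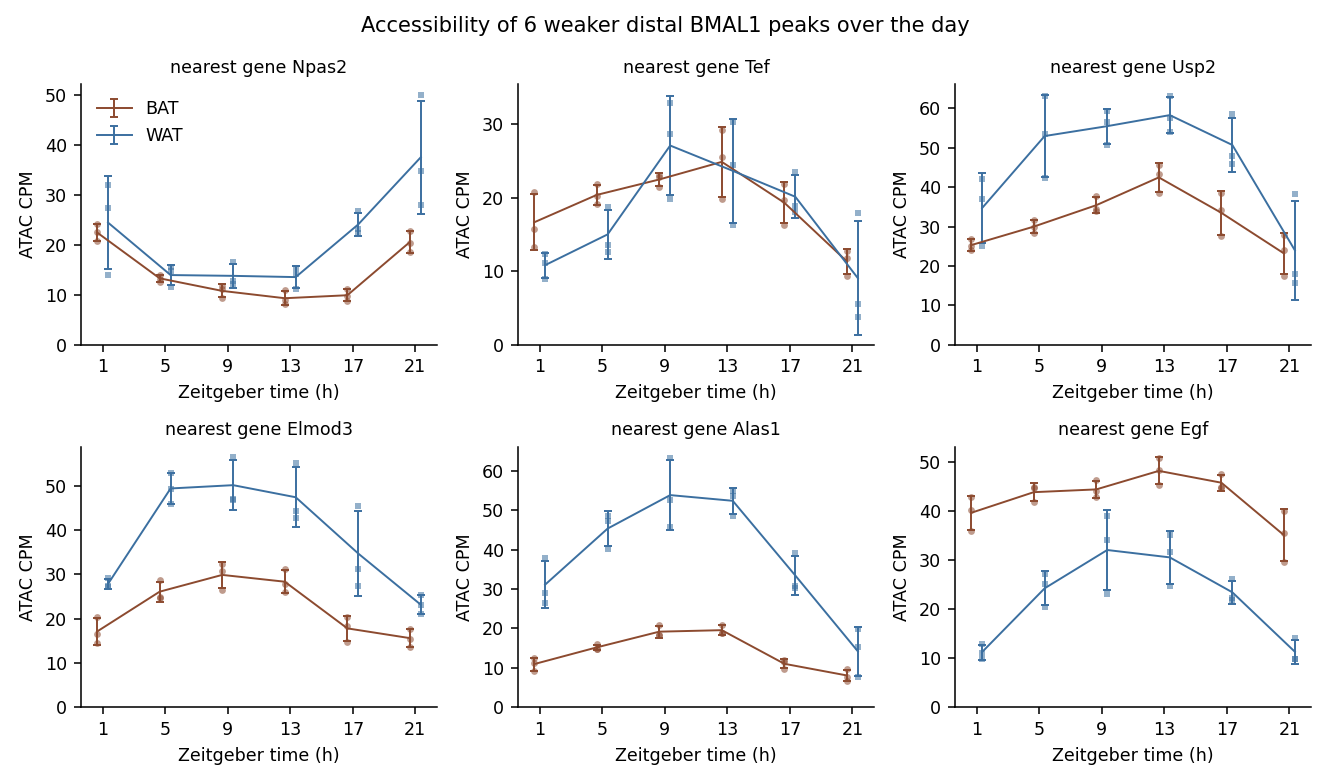
ATAC signal in CPM (vertical axes, from 0) against Zeitgeber time in hours (horizontal axes) for 6 weaker distal BMAL1 peaks named by their nearest gene, with points for libraries and lines with bars for mean ± SD (n = 3 per depot and time), each depot scaled within its own table. The Npas2 peak is highest at ZT21 and ZT1, and the others at ZT9 or ZT13.

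Several strongly rhythmic peaks were highest around ZT9 to ZT13. The Alas1 peak (chr9:106235589-106235801), in an intron near the gene of the first enzyme of heme synthesis, averaged 19.6 ± 1.24 CPM at ZT13 in BAT and 8.08 ± 1.47 CPM at ZT21 (SD, n = 3). In WAT it averaged 53.8 ± 8.82 CPM at ZT9 and 14.2 ± 6.16 CPM at ZT21. The swing was 1.29 ± 0.13 log2 units in BAT at ZT9.73 and 1.62 ± 0.25 in WAT at ZT9.49 (edgeR adjusted p = 1.14e-05 in BAT and 0.00124 in WAT). The Elmod3 peak (chr6:72593501-72593713), near the gene of a regulator of small GTPases, had the high score of 14.0 and was among the 8 lowest rhythm p in both depots, with 1.06 ± 0.12 in BAT at ZT9.40 and 1.15 ± 0.14 in WAT at ZT9.55. The peaks near Trip10 (chr17:57259917-57260129), the gene of an adaptor of insulin-stimulated glucose transport, and Pard3 (chr8:127479950-127480162), a scaffold of cell polarity, were also rhythmic in both. The Trip10 peak was highest at ZT13.4 in BAT and ZT11.9 in WAT, and the Pard3 peak at ZT13.6 in BAT and ZT12.8 in WAT.

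Other peaks of the same rank had their maximum at later hours or a region in a single depot. The Galnt10 peak (chr11:57600753-57600965), near a gene of protein glycosylation, averaged 33.2 ± 3.33 CPM at ZT21 and 14.0 ± 2.38 CPM at ZT9 in BAT, with its maximum at ZT20.9 there and at ZT19.0 in WAT. The Rtp4 peak (chr16:23568496-23568708) was highest at ZT20.5 in BAT and ZT19.0 in WAT. A peak assigned to Mir7237 (chr8:122079008-122079220) had only a WAT region, with 49.1, 40.7 and 37.4 CPM at ZT9 and 16.9, 16.9 and 11.1 CPM at ZT21, groups that do not overlap, and swung by 1.47 ± 0.16 log2 units (edgeR adjusted p = 4.99e-06). The 8 peaks with the highest scores were chosen by score and not by rhythm. Of them only that near E030018B13Rik (chr7:63896945-63897157) was rhythmic, by 0.44 ± 0.08 in BAT and 0.37 ± 0.09 in WAT at ZT12.0 and ZT12.1. Over all regions, 18.9% were rhythmic in BAT and 16.2% in WAT, and over distal regions without a BMAL1 peak 21.2% and 23.7%. The 14.6-score peak beside Nr3c1 had 0.16 ± 0.07 in BAT (adjusted p = 0.25) and 0.20 ± 0.09 in WAT (adjusted p = 0.225).

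Most rhythmic peaks open in both depots were called in 1 depot only, and those called in both had maxima about as close in time as other regions called in both. Of the 2164 peaks with regions in both, 424 had a BAT rhythm, 474 a WAT rhythm, and 195 had both, which is 46% of the BAT calls and 41.1% of the WAT calls. A rhythm was called only in BAT at 229 and only in WAT at 279. By the same edgeR test, 71 of the 229 had an unadjusted p under 0.05 in WAT, and 85 of the 279 in BAT. Of the 195 called in both, 183 had maxima within 4 h of each other (93.8%) and 1 had maxima over 8 h apart. The median gap was 1.32 h, and the median of WAT minus BAT was -0.74 h. Among all 21636 shared regions the same figures were 34.3% of BAT calls, 41.3% of WAT calls, 94.5% within 4 h and a median gap of 1.26 h. Those regions include ones near starts.

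**Figure D4:**
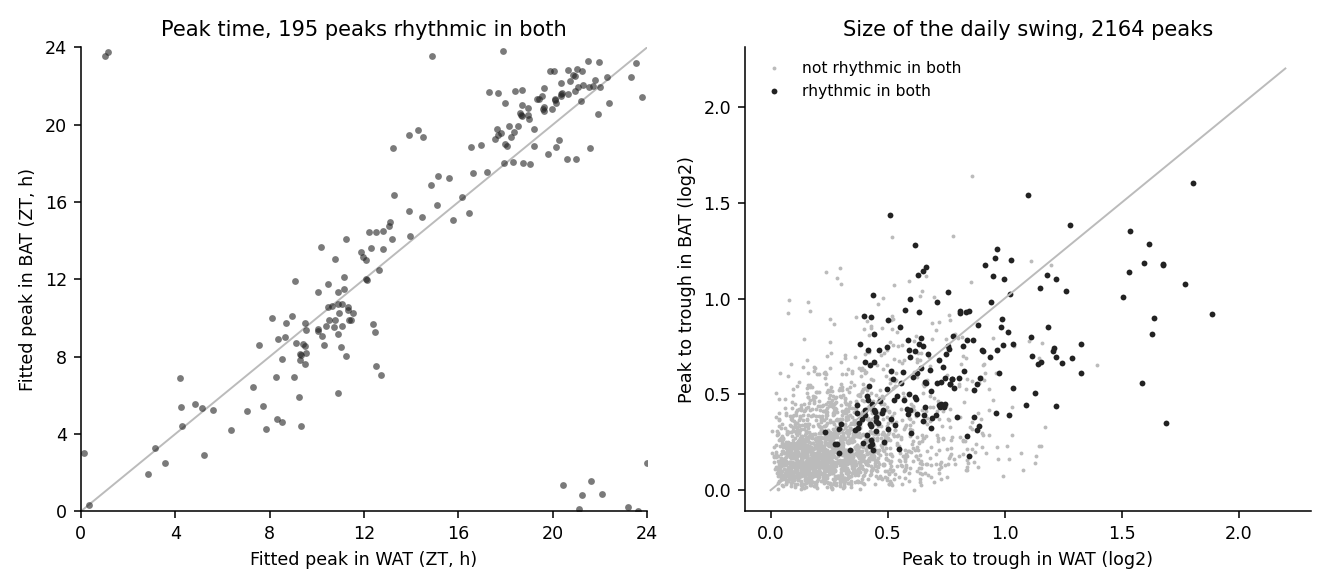
Left, fitted hour of the maximum in BAT (vertical) against WAT (horizontal) for the 195 weaker distal BMAL1 peaks rhythmic in both. Right, trough-to-peak swing in log2 units in BAT (vertical) against WAT (horizontal) for all 2164 with regions in both depots. Most points on the left lie near the diagonal, with 183 of 195 within 4 h.

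The rhythm itself differed between depots at 36 of 2086 shared peaks (1.73%), where 0.924% of all shared regions did (200 of 21636). The test was edgeR's, of the interaction between depot and the 24 h curve, at an adjusted p under 0.05. The median size of the difference at the 36 was 0.40 log2 units of amplitude. This amplitude runs from the middle to the maximum of the difference curve, so it is not on the trough-to-peak scale of the swings. The lowest p belonged to an intronic peak of Egf (chr3:129680434-129680646), the gene of epidermal growth factor. On the scale of each depot's own table, it had 45.5, 48.4 and 51.0 CPM at ZT13 and 36.0, 40.2 and 42.9 CPM at ZT1 in BAT. In WAT it had 35.3, 31.8 and 24.8 CPM at ZT13 and 9.83, 11.2 and 12.9 CPM at ZT1. Both depots were lower at ZT1 than at ZT13 in every library, by a larger factor in WAT, with a swing of 0.35 ± 0.09 in BAT and 1.69 ± 0.19 in WAT (adjusted p of the difference 0.000843). On the common scale of the shared regions, the Egf region had 45.5 to 78.1 CPM in BAT, against 10.7 to 43.0 CPM in WAT, so the depots did not overlap. The count of 36 was 77 with DESeq2 (3.69%, against 2.02% of all shared regions) and 84 with time as a factor (4.03%, against 1.78%). It was 18 without WAT ZT13 replicate 1, and leaving out other libraries gave up to 51. All shared regions include regions near starts, and distal shared regions without a BMAL1 peak were not counted apart. Of regions without a BMAL1 peak within 1000 bp of a start, only 11.7% were rhythmic in BAT and 7.33% in WAT. The part of distance in the difference from all shared regions was not tested.

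At 6 of the 8 peaks of lowest interaction p the swing was larger in WAT and passed there, and the other two passed only in BAT. Of all 36, 25 had a larger swing in WAT that passed there, and 11 passed only in BAT. Near Dkk2 (chr3:132274889-132275101), the gene of a Wnt pathway modulator, the WAT region had 30.8, 42.5 and 38.4 CPM at ZT13 and 16.9, 19.8 and 22.3 CPM at ZT21, while the BAT region had 22.2, 25.1 and 19.4 CPM at ZT13 and 24.3, 24.1 and 27.9 CPM at ZT21. The WAT groups do not overlap and the BAT groups do. Peaks near Ccnl1 (chr3:65871293-65871505, a cyclin of RNA processing) and Slc25a33 (chr4:149792325-149792537, a mitochondrial carrier of pyrimidine nucleotides) swung by 0.66 and 1.13 in WAT and by 0.09 and 0.18 in BAT, where they did not pass. Near Bcl2l11 (chr2:128245588-128245800), the gene of the cell-death protein BIM, and Zfp423 (chr8:87738038-87738250) the BAT region was rhythmic with maxima at ZT22.3 and ZT22.8 and the WAT region was not called (adjusted p = 0.157 and 0.0653).

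Levels differed between depots more often than rhythms. BAT was at least 2-fold higher at 104 of the 2086 peaks (4.99%, against 3.67% of all shared regions) and at least 2-fold lower at 117 (5.61%, against 3.55%), at an edgeR adjusted p under 0.05. Here too all shared regions include those near starts. In these bulk samples, fewer cells with an open region and less opening per cell cannot be told apart. The median log2 difference of BAT minus WAT was 0.10 over the peaks and -0.01 over all shared regions. CPM compared between depots are on the common scale of that fit. The largest was at Mir1904 (chr13:109914994-109915206), where the 18 BAT libraries had 115 to 146 CPM with a median of 124, and the 18 WAT libraries 17 to 52.2 CPM with a median of 29.5, a difference of 2.10 ± 0.07 log2 units. Peaks near Adamts2 (chr11:50546908-50547120, a protease of procollagen), Fhl2 (chr1:43259846-43260058, a LIM-domain cofactor) and 2610035D17Rik (chr11:113165320-113165532) were higher in BAT by 2.01 to 2.07.

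In the other direction, the peak at Mir8106 (chr9:122199498-122199710) had 7.36 to 18.7 CPM in BAT with a median of 13.8, against 50.3 to 78.2 CPM in WAT with a median of 63.3. Its difference was -2.26 ± 0.08 log2 units. The peak nearest to Insig2 (chr1:121280560-121280772), the gene of a sterol sensor that holds back fat synthesis, had a median of 10.0 CPM in BAT, against 45.7 CPM in WAT, with a difference of -2.05 ± 0.12. Peaks near Gm17769 (chr10:77440936-77441148) and Themis3 (chr17:66732603-66732815) were lower in BAT by a similar amount, -2.19 and -2.01. At each of these 8 peaks the libraries of the depots did not overlap, which follows largely from choosing the largest differences. Overlap was not counted at the other shared regions. Markers of other cells also differed between the depots' RNA. The 5 skeletal muscle markers summed to 25.2 to 613 CPM in BAT with a median of 133, and 5.35 to 182 CPM in WAT with a median of 41.2. The 5 endothelial markers had a median sum of 6.19 CPM in BAT, against 54.2 CPM in WAT. The sums of the macrophage and fibroblast markers were also higher in WAT. The part of these cells in the depot differences was not tested.

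Of the 19 core clock genes, 7 were the nearest gene of 14 weaker distal peaks. In BAT 4 of 14 regions were rhythmic, where 18.9% of all regions were, and in WAT 8 of 12, where 16.2% were. Of distal regions without a BMAL1 peak, 21.2% were rhythmic in BAT and 23.7% in WAT. The regions of the clock genes had a median swing of 0.25 log2 units in BAT and 0.45 in WAT over all of them. The median over all regions was 0.26 in BAT and 0.25 in WAT, and over distal regions without a BMAL1 peak 0.33 and 0.37. The RNA of these clock genes was rhythmic in BAT for 5 of the 6 genes tested, Arntl, Rora, Tef, Hlf and Nfil3 (9.31% of all genes were). In WAT it was rhythmic for 1 of 7, Tef (9.78% of all genes were). When each library was left out in turn, the BAT call of Hlf was lost in 12 of 17 fits and the WAT call of Tef in 13 of 18. The peaks were found on the activator side (Arntl, Npas2, Rora), on the repressor side (Per2, Nfil3) and among the output factors that read D-box elements (Tef, Hlf).

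On the activator side, besides Npas2, the peak in an intron of Arntl (chr7:113260412-113260624), the gene of BMAL1 itself, was rhythmic in WAT by 0.33 ± 0.07 log2 units at ZT18.6 (edgeR adjusted p = 0.00694), and in BAT had 0.15 ± 0.06 (adjusted p = 0.165). The RNA of Arntl swung by 4.92 ± 0.57 in BAT with its maximum at ZT0.05 (adjusted p = 0.000119). Of 3 intronic peaks of Rora, a receptor that drives Arntl, the one at chr9:69092219-69092431 was rhythmic in both depots, by 0.42 ± 0.08 in BAT at ZT15.5 and 0.40 ± 0.12 in WAT at ZT13.9, chr9:69259436-69259648 in WAT only and chr9:69181629-69181841 in neither. On the repressor side, only chr1:91436289-91436501 of the 3 intronic peaks of Per2 passed, in WAT at an adjusted p of 0.0418. The 4 other peaks of that side lay around Nfil3, the gene of a D-box repressor, and 3 of them were rhythmic: chr13:53008903-53009115 in WAT at ZT11.7, chr13:53018015-53018227 in WAT at ZT20.1 and chr13:53068110-53068322 in BAT at ZT10.6. The WAT calls at the first of the Rora peaks, at the Per2 peak and at the Nfil3 peak of ZT20.1 were lost in 11, 12 and 13 of 18 fits with a library left out. The WAT call at the Rora peak chr9:69259436-69259648 was lost in 7 of 18.

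Among the output factors, the Tef peak (chr15:81796512-81796724, at -6055 bases) gave a rhythm in both region and gene. Its region had 23.0, 21.5 and 22.8 CPM at ZT9 and 11.8, 9.39 and 12.7 CPM at ZT21 in BAT, and 19.7, 32.8 and 28.6 CPM at ZT9 and 3.70, 5.48 and 17.9 CPM at ZT21 in WAT. The groups do not overlap in either depot. The swing was 0.90 ± 0.16 log2 units in BAT at ZT10.4 and 1.64 ± 0.30 in WAT at ZT11.3 (edgeR adjusted p = 0.00238 in BAT and 0.00229 in WAT). Tef RNA swung by 1.63 ± 0.14 at ZT11.7 in BAT and by 1.3 ± 0.33 at ZT13.3 in WAT (adjusted p = 1.26e-05 in BAT and 0.0402 in WAT). The peak in an intron of Hlf (chr11:90355293-90355505) was not called in either depot (adjusted p = 0.501 in BAT and 0.129 in WAT).

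Of 19 genes of fat synthesis, 11 were nearest to 14 peaks, and 2 of 13 regions were rhythmic in BAT and 5 of 12 in WAT. The share of all regions was 18.9% in BAT and 16.2% in WAT, and that of distal regions without a BMAL1 peak 21.2% and 23.7%. The RNA of the fat synthesis genes was rhythmic for 5 of 11 in BAT and 8 of 11 in WAT. Of all genes, 9.31% were rhythmic in BAT and 9.78% in WAT. The Thrsp peak (chr7:97418770-97418982, at -1326 bases), beside the gene of a lipogenic regulator, had 83.1, 91.7 and 88.4 CPM at ZT17 and 46.9, 48.3 and 63.1 CPM at ZT21 in WAT, and swung there by 0.59 ± 0.14 log2 units at ZT14.3 (edgeR adjusted p = 0.0113). In BAT it swung by 0.05 ± 0.06 (adjusted p = 0.84), and the difference between depots did not pass (adjusted p = 0.0996). Peaks near Agpat2 and Pcx, which serve triglyceride assembly and pyruvate carboxylation, were rhythmic in both depots, and peaks near Gpam and Fasn, the genes of the first acyltransferase of triglyceride synthesis and of fatty acid synthase, in WAT.

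Genes of lipolysis, heat production, adipocyte control and insulin signalling also had weaker distal peaks. Their counts of rhythmic regions stand beside 18.9% of all regions in BAT and 16.2% in WAT. For distal regions without a BMAL1 peak the share was 21.2% in BAT and 23.7% in WAT. Of 17 genes of lipolysis and lipid droplets, 4 were nearest to 7 peaks, of which 1 of 7 was rhythmic in BAT (Fabp4) and 2 of 7 in WAT (Mgll and Lpl). Of 14 genes of heat production only Ppargc1a and Alpl had a peak, and Ucp1 had none. Both peaks assigned to Ppargc1a, the gene of a coactivator of mitochondrial genes, were rhythmic in WAT, and none of the 3 regions in BAT. The peak chr5:51595688-51595900, at -28069 bases from the start, swung in WAT by 0.38 ± 0.10 log2 units. The peak chr5:51041178-51041390, at 512637 bases from the start, swung there by 0.84 ± 0.19. Among adipocyte regulators, 8 of 14 genes had 15 peaks, with 4 of 15 rhythmic in BAT and 3 of 15 in WAT. The Klf9 peak at chr19:23056927-23057139, far upstream of a glucocorticoid-induced factor, averaged 17.9 ± 4.58 CPM at ZT9 and 4.19 ± 0.863 CPM at ZT21 in BAT, and 47.5 ± 7.19 CPM at ZT9 and 17.8 ± 1.68 CPM at ZT21 in WAT. Of 10 insulin signalling genes, 5 had 10 peaks, with 1 of 7 rhythmic in BAT (near Insr) and 1 of 9 in WAT (near Akt2).

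The nearest genes were rhythmic somewhat more often than all genes in BAT and at nearly the same rate in WAT. Of the 2312 genes, 2286 were found in the RNA table. In BAT 193 of 1418 tested were rhythmic (13.6%, against 9.31% of all genes tested) and in WAT 161 of 1481 (10.9%, against 9.78%), by the same edgeR test. The difference of these shares was not tested. Maxima of the rhythmic nearest genes were at ZT1 for 31.1% and ZT13 for 32.1% in BAT, and at ZT21 for 39.8% and ZT17 for 24.2% in WAT, where all rhythmic genes had 31.4% and 29.5% in BAT and 47.8% and 21.4% in WAT. Without the 3 WAT libraries rich in ribosomal RNA, 323 of 1532 nearest genes were rhythmic (21.1%, against 19.5% of all genes). The BAT count was 411 without ZT21 replicate 2 and 104 without ZT1 replicate 3, and the WAT count 314 without ZT9 replicate 3 and 66 without ZT21 replicate 1.

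A rhythmic region and a rhythmic gene met at 65 peaks in BAT and 43 in WAT. In BAT the gene was rhythmic for 19.3% of the peaks whose region was, and for 14.0% of the peaks whose region was not, and in WAT for 12.8% and 11.5%. In BAT 48 of the 65 had maxima of region and RNA within 4 h (73.8%) and the RNA followed by a median of 1.95 h. In WAT 19 of the 43 lay within 4 h (44.2%) and 16 over 8 h apart (37.2%). Without the 3 ribosomal-rich libraries, 37 of 75 in WAT lay within 4 h and 25 over 8 h apart. Peaks that share a gene share its RNA values, and the assignment to the nearest gene was not tested. The gaps between region and RNA were not computed for other rhythmic regions, so they describe these peaks only.

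**Figure D5:**
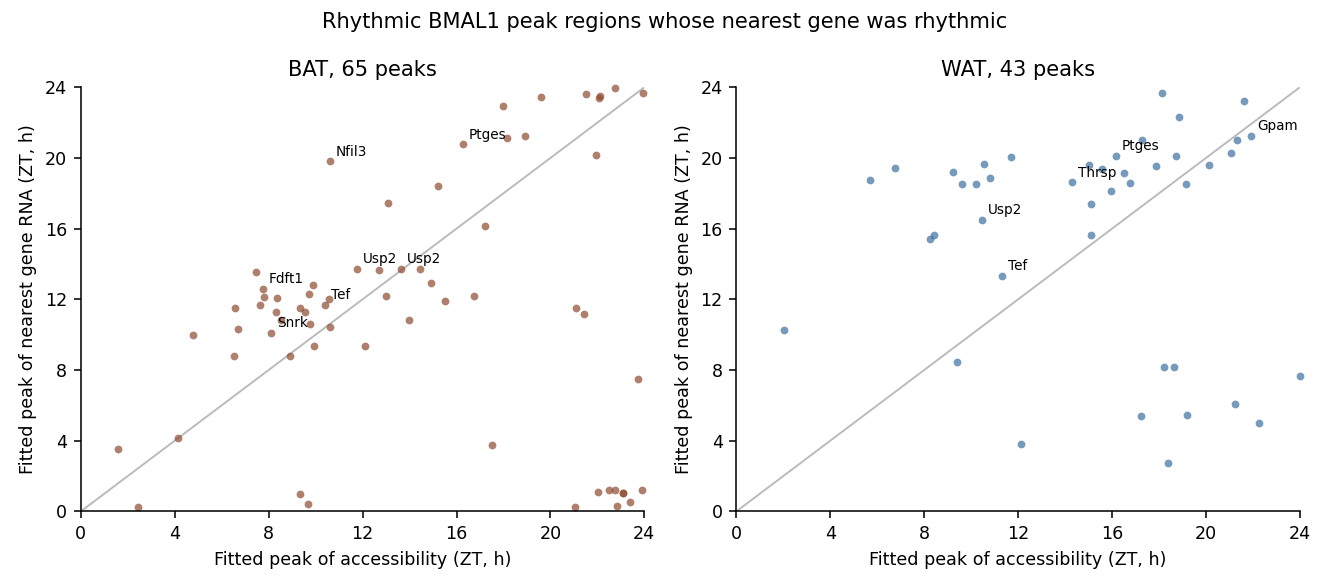
Fitted hour of the RNA maximum of the nearest gene (vertical, ZT in hours) against the fitted hour of the accessibility maximum (horizontal, ZT in hours) for weaker distal BMAL1 peaks with both rhythmic, in BAT (left, 65) and WAT (right, 43), with the diagonal drawn. In BAT 48 points lie within 4 h, counted around the clock, and in WAT 19.

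The pairs with the lowest p showed both short and long delays. Usp2, the gene of a ubiquitin protease under clock control, had a peak (chr9:44079035-44079247, at -5779 bases) with 38.4, 43.3 and 45.7 CPM at ZT13 and 24.1, 17.5 and 27.9 CPM at ZT21 in BAT, and 54.1, 57.6 and 63.2 CPM at ZT13 and 15.6, 17.9 and 38.3 CPM at ZT21 in WAT. Its RNA had 173, 135 and 229 CPM at ZT13 and 41.1, 41.0 and 41.4 CPM at ZT1 in BAT, which do not overlap. The accessibility was highest at ZT11.8 in BAT and ZT10.5 in WAT, and the RNA at ZT13.7 in BAT and ZT16.5 in WAT (swings of 2.08 ± 0.20 and 2.85 ± 0.53 log2 units; edgeR adjusted p = 3.48e-05 and 0.00716).

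In BAT, peaks near Fdft1 (chr14:63164871-63165083, squalene synthase), Snrk (chr9:122084342-122084554, a kinase related to AMPK), Tacc2 (chr7:130646055-130646267, the sequence shown above) and Xrcc3 (chr12:111795325-111795537, a DNA repair protein) were rhythmic beside rhythmic RNA. The Fdft1 region was highest at ZT7.74 and its RNA at ZT12.6. The Snrk region was highest at ZT8.11 and its RNA at ZT10.1, and the Tacc2 region at ZT8.52 and its RNA at ZT10.8. For Xrcc3 the region was highest at ZT2.45, after the RNA at ZT0.25. The Nfil3 peak chr13:53068110-53068322 was highest at ZT10.6 and Nfil3 RNA at ZT19.8. The peak near 6430573F11Rik (chr8:36549145-36549357) was highest at ZT9.31 and its RNA at ZT0.96.

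In WAT, the peak near Ptges (chr2:30927498-30927710), the gene of prostaglandin E synthase, had 33.9, 63.8 and 57.2 CPM at ZT17 and 16.9, 15.1 and 14.0 CPM at ZT1, and its RNA 39.1, 74.3 and 59.0 CPM at ZT17 and 4.04, 3.75 and 6.74 CPM at ZT13. Neither pair of groups overlaps. The region swung by 1.60 ± 0.21 log2 units at ZT16.2 and the RNA by 4.03 ± 0.56 at ZT20.1 (edgeR adjusted p = 3.41e-05 for the region and 0.000679 for the RNA), and in BAT the region was highest at ZT16.3. The region assigned to Ppp1r3b (chr8:35218360-35218572, at -157275 bases), the gene of a glycogen-targeting subunit of protein phosphatase 1, was highest at ZT16.0. Ppp1r3b RNA was highest at ZT18.1. Both peaks near Trim7 (chr11:48833861-48834073 and chr11:48834311-48834523) were highest at ZT18.2 and ZT18.6, and Trim7 RNA at ZT8.14, so that these 2 peaks count as 1 gene over 8 h away. The Gpam peak (chr19:55139239-55139451) and Gpam RNA were highest at ZT21.9 and ZT21.2.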

How the data were processed

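Per the file headers, the authors counted ATAC tags in 150 bp regions, with a peak set for each depot, and deposited unscaled counts. Their deposited RNA table holds expected counts per gene. Tools named in the submitters' processing notes are Bowtie2 2.4.1 (for ChIP), HOMER, STAR 2.7.5, DESeq2, RSEM 1.3.0 and limma, with the mm10 build. The deposited BMAL1 table gives a HOMER peak score and a signal of tags scaled to a fixed total for each ChIP library, per the file headers, on 212 bp peaks.

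The authors also deposited TPM and JTK_CYCLE p-values and q-values per depot. In the authors' deposited table, 258 of the 2685 peaks in BAT (9.61%) had a q-value under 0.05, where 9.10% of regions had. In the authors' deposited table for WAT, 250 of 2363 peaks (10.6%) did, where 8.60% of regions had. No other value of these tables was used.

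Expected counts were rounded. In R 4.3.3, edgeR 4.0.16 (TMM, filterByExpr, robust quasi-likelihood fits) tested each whole table with Benjamini-Hochberg adjustment. Each fit was tested on simulated data. Rhythm was a 24 h cosine and sine per depot. Depots were compared over 36 ATAC libraries on regions that overlap by at least 75 bp, where BAT and WAT tags were counted on each depot's own region. Errors of fitted swings are SE. Levels are CPM scaled by TMM. Overlaps came from bedtools 2.31.1. All members passed the filter on low counts. 1 RNA column of no listed sample was not used.

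Named peaks were the 8 of lowest rhythm p in each depot, the 8 of highest score, all assigned to core clock genes, up to 8 per depot with region and gene rhythmic, 8 of lowest depot interaction p, and 4 in each direction of largest depot difference. Genes of the fixed lists are named beside them. The peaks and lists were chosen with earlier results of these data known.

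Alternatives were DESeq2 1.42.0, other scalings, limma 3.58.1 on quantile-normalized values, no filter, time as a factor, a replicate block, other limits on score, distance and overlap, and each library left out.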

Additional observations from a re-analysis of the deposited data

Results flagged for a closer look

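The daily rhythm differed between BAT and WAT, by the interaction test, at 36 of the weaker distal BMAL1 peaks. The 8 with the lowest p are given by the amplitude by which the BAT and WAT curves differed, on the log2 scale, each with its edgeR adjusted p. The amplitude runs from the middle to the maximum of the difference curve, not from trough to peak as the swings do. The Egf peak differed by 0.67 (adjusted p = 0.000843) and the Dkk2 peak by 0.59 (adjusted p = 0.00251). Peaks near Bcl2l11 and Zfpm1, the gene of a cofactor of GATA factors, differed by 0.42 (adjusted p = 0.00278) and 0.40 (adjusted p = 0.00282). Peaks near Ccnl1 and Slc25a33 differed by 0.29 and 0.49 (adjusted p = 0.00307 for each). The Zfp423 peak differed by 0.38 (adjusted p = 0.0100) and the peak near Gins2, the gene of a replication factor, by 0.42 (adjusted p = 0.0153). At 6 of them, Egf, Dkk2, Zfpm1, Ccnl1, Slc25a33 and Gins2, the swing was larger in WAT than in BAT and passed in WAT, and the Bcl2l11 and Zfp423 peaks passed only in BAT. Macrophage, fibroblast and endothelial markers had higher median sums in WAT RNA and skeletal muscle markers in BAT RNA, and their part in these differences was not tested.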

How the results depend on the processing

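No named value changed direction among the alternatives run that give one. The fits with time as a factor give no swing or peak time, so they could not show such a change. Rhythmic peaks in BAT numbered 545, and 938 with time as a factor (34.9% of the peaks, 32.5% of all regions), and 427 to 558 with a library left out. In WAT 543 were rhythmic, 349 without the ZT21 libraries (14.8%, against 10.8% of all regions), an alternative chosen after seeing the data, and 430 to 547 with a library left out. Rhythmic nearest genes in BAT numbered 193, and 336 with DESeq2 (22.9%, against 18.1% of all genes). There were 336 without scaling factors (23.7%, against 18.7%), 54 over peaks within 10000 bp, and 104 to 411 with a library left out. Omitting BAT ZT1 replicate 2 gave 108, ZT1 replicate 3 104, ZT13 replicate 3 107, ZT21 replicate 1 126, ZT21 replicate 2 411 and ZT9 replicate 2 128. In WAT 161 nearest genes were rhythmic, 265 with DESeq2 (17.6%, against 15.2% of all genes) and 285 without a filter (14.8%, against 11.5%). There were 99 without scaling factors (6.68%, against 6.19%) and 57 over peaks within 10000 bp. There were 323 without the 3 libraries rich in ribosomal RNA (chosen after seeing the data), and 66 to 314 with a library left out. Omitting WAT ZT17 replicate 1 gave 78, ZT17 replicate 3 75, ZT21 replicate 1 66, ZT21 replicate 3 76, ZT5 replicate 1 100, ZT5 replicate 2 81, ZT9 replicate 2 70 and ZT9 replicate 3 314. Rhythms differed between depots at 36 peaks, at 77 with DESeq2, 23 without scaling factors, 84 with time as a factor, and 18 to 51 with a library left out, where BAT ZT1 replicate 2 gave 22, BAT ZT13 replicate 2 22, BAT ZT21 replicate 3 23, WAT ZT1 replicate 2 21 and WAT ZT13 replicate 1 18. Level differences of 2-fold numbered 221, and 216 to 228 with a library left out. The cause of these shifts was not tested. With a replicate block, the counts were 520 and 533 rhythmic peaks in BAT and WAT, 148 and 178 nearest genes, 139 rhythm differences (6.66%, against 3.76% of all shared regions) and 220 level differences. Same-numbered BAT and WAT libraries of a time correlated with r from -0.05 to 0.52 and a median of 0.26, against -0.04 for other numbers. The r was over 0.1 in 11 of 18 pairs, and 13 of 18 BAT libraries correlated best with their own number in WAT, a hint of pairing from the data. The labels do not pair them and not every pair passed, so the numbers were taken as names.

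Calls of named peaks that fell away when a library was left out include Ppp2r5a in BAT in 13 of 18 fits, the Per2 peak chr1:91436289-91436501 in WAT in 12 of 18, the Rora peak chr9:69092219-69092431 in WAT in 11 of 18, the Nfil3 peak chr13:53018015-53018227 in WAT in 13 of 18, and the RNA of Tef in WAT in 13 of 18, of Alas1 in BAT in 14 of 17 and of Hlf in BAT in 12 of 17. WAT RNA depth, down to 1301522 counts, limits what its rhythms can show, and BMAL1 binding rests on 2 libraries of 1 depot and time.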
